A study of Mus musculus with 20 samples.

Results

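The genes described here are 9 mouse genes of B, T and natural killer (NK) lymphocytes, namely Cd79a, Cd79b, Ms4a1, Ly6d, Cd3e, Cd3g, Lag3, Nkg7 and Trbc2. They were followed through macrophages sorted from skeletal muscle and then through whole muscle. They were taken by symbol, and 8 of the 9 had a row in all 4 deposited expression tables, which together hold 24413 gene names. Trbc2, a T cell receptor beta constant gene, had no row and was not analysed here. The genes bear on a pair of questions: whether the sorts that isolated muscle macrophages also held lymphocyte RNA, and whether lymphocyte RNA was present in damaged or dystrophic muscle.

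The series compares macrophages of resting muscle with those entering after injury, and asks how muscle fares when the CSF1 receptor, on which many macrophages depend, is blocked by the oral inhibitor PLX73086. Resident macrophages came from resting skeletal muscle of male Cx3cr1-GFP reporter mice and were all CD45+ CD11B+ LY6G- F4/80+ MERTK+. They were split into MHCII+ and MHCII- cells and each of these into GFP+ and GFP- cells, which makes 4 gates with 1 library each. GFP in this mouse marks activity of the Cx3cr1 locus, and the labels do not say how many copies of the allele the mice carried or how many mice were pooled. Infiltrating cells were PI- CD45+ CD11B+, negative for LY6G and SIGLECF, and GFP+. They were taken from the wild-type member of a surgically joined female pair whose other member carried GFP, so that GFP marks cells that arrived through the shared blood. They came from damaged tibialis anterior (TA) muscle 2 days (1 library), 4 days (2 libraries) and 6 days (1 library) after injury, without selection on F4/80 or MERTK. The dystrophic muscles were TAs of 8-month-old female DMDmdx mice, which lack dystrophin. They had eaten PLX73086 (200 mg per kg of food) or the AIN-76A control diet for 6 months, with 3 libraries per diet. PLX replicate 1 and control replicates 1 and 2 also carried a PDGFRaEGFP reporter. The injured muscles were TAs of male C57BL/6J mice that had eaten PLX73086 at the same dose or the control diet for 3 weeks, followed by 3 days on regular food. They were taken 12 h (1 library per diet) or 18 h (2 libraries per diet) after injury. The labels do not name the injuring agent, and they give perfusion with PBS as the step before muscle was taken. No sorted lymphocyte library was analysed, so no level below can be turned into a share of cells.

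Cd79a and Cd79b encode the paired signalling chains of the B cell antigen receptor, Ms4a1 encodes the B cell surface protein CD20, and Ly6d encodes a surface protein of B-lineage cells that keratinocytes also make. Cd3e and Cd3g encode subunits of the CD3 complex, which passes on the T cell receptor's signal, while Lag3 encodes an inhibitory receptor of activated T cells and Nkg7 a protein of cytotoxic granules in NK and CD8 T cells. B cells and dendritic cells carry MHC class II on their surface, whereas resting mouse T cells and NK cells largely lack it, and NK cells carry CD11B as macrophages do. Lymphocytes enter injured muscle after the first wave of neutrophils and monocytes, and regulatory T cells are known there for supporting repair.

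The members lie at separate places in the genome (mm10, GENCODE vM21 annotation), all as protein-coding genes apart from the T cell receptor segment Trbc2. Cd79a spans chromosome 7 from 24897381 to 24902197 on the plus strand and Nkg7 spans 43437073 to 43438249 of chromosome 7, also on the plus strand. Cd3g, at 44969572 to 44980431, and Cd3e, at 44998740 to 45009627, are neighbours on the minus strand of chromosome 9. Cd79b lies on chromosome 11 from 106311341 to 106314762, Ms4a1 on chromosome 19 from 11249675 to 11266241, Ly6d on chromosome 15 from 74762056 to 74763620 and Lag3 on chromosome 6 from 124904361 to 124911705, all on the minus strand. The locus that the resident, mdx and injured tables list for Ms4a1 runs from 11196816 to 11299884 and is wider than the gene, so reads of neighbouring transcripts may stand in its value.

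Promoters of 4 members were found among the RefSeq sequences for GRCm38.p6, namely those of Cd79a, Nkg7, Cd3g and Cd3e. They are shown because Cd79a followed the MHCII gate, while Cd3g, Cd3e and Nkg7 followed the day after injury, so that the regions of genes that moved apart can be read side by side. Each line holds the 250 bases upstream of the transcription start that RefSeq gives, 5′ to 3′ on the gene's own strand, at chr7:24897247-24897496 (plus), chr7:43436888-43437137 (plus), chr9:44980432-44980681 (minus) and chr9:45009612-45009861 (minus) in the order given. The RefSeq start lies inside the longer GENCODE span for 3 of them, so that 116 bases of the Cd79a window, 65 of the Nkg7 window and 16 of the Cd3e window are within the spans given above. Capitals mark E boxes (CANNTG), the letters bound by E proteins, and the RUNX letters TGTGGT, read as ACCACA where they lie on the opposite strand.
Cd79a: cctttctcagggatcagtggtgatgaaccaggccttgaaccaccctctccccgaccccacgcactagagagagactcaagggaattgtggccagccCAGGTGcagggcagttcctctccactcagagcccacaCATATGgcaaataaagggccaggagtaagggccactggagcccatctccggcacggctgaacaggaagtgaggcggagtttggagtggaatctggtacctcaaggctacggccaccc
Nkg7: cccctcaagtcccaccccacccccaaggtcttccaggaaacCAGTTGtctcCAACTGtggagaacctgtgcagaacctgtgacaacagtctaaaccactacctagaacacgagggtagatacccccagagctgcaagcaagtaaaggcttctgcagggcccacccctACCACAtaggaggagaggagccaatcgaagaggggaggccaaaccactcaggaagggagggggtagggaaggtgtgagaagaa
Cd3g: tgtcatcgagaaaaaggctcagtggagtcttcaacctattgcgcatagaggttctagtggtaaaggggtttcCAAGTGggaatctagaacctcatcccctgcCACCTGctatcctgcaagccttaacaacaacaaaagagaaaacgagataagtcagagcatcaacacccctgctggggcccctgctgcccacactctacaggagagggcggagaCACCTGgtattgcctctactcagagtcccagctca
Cd3e: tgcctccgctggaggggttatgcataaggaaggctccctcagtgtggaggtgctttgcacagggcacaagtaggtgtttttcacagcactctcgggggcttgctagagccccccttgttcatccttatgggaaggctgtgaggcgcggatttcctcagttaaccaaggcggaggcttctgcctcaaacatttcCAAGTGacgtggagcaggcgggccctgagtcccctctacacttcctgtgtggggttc
E boxes numbered 2 in Cd79a, 2 in Nkg7, 3 in Cd3g and 1 in Cd3e, and 66.2% of 32851 mouse promoter windows of the same length held at least 1. The RUNX letters were found once, in Nkg7, against 14.0% of all windows. ETS cores (GGAA, on either strand) were found in all 4, as in 93.4% of windows. The octamer (ATGCAAAT, in 1.6% of windows) and the TATA box (TATAAA, in 12.4%) were in none of these 4 windows. For EBF only a strict palindrome was searched (in 0.779% of windows), and it was in none of the 4 either. EBF sites that depart from this palindrome would be missed. Whether these windows, that of Cd79a among them, hold such sites was not tested. Both strands were searched, and a match is a description of the letters only.

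Expression is given as FPKM, fragments scaled to transcript length and to the mapped fragments of the library, as deposited. The libraries held an estimated 8150000 to 20100000 fragments, from the size of the steps between low FPKM values, so a level near 1 FPKM of these short transcripts rests on few fragments. In the sorted libraries the gates fitted their own genes. H2-Ab1, an MHC class II chain, stood at 3258 and 2404 FPKM in the MHCII+ gates, against 77.7 and 102 FPKM in the MHCII- gates, and Cx3cr1 at 24.7 and 32.2 FPKM in the GFP+ gates, against 7.31 and 5.12 FPKM in the GFP- gates. The summed FPKM of 11 macrophage and monocyte genes was 10181 to 11189 in the MHCII+ gates and 10629 to 10659 in the MHCII- gates, and 8224 to 10728 over the infiltrating libraries. In mdx muscle control replicate 2 stood apart, with a macrophage sum of 409 FPKM against 64.6 and 126 FPKM in the other control libraries. In bulk samples, fewer cells of a type and less RNA per cell cannot be told apart.

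In the resident macrophage sorts the B cell genes followed the MHCII gate. Cd79a, Cd79b, Ms4a1 and Ly6d stood higher in both MHCII+ gates than in either MHCII- gate, by 3.62-fold to 32.1-fold in FPKM within a GFP class. The T cell subunits Cd3e and Cd3g stayed under 2 FPKM in all 4 gates and showed no such division. With 1 library per gate there is no replicate of any gate, and a 2-fold change on the FPKM + 1 scale serves as the size rule.

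Cd79a had 13.5 FPKM in MHCII+ GFP+ and 14.2 FPKM in MHCII+ GFP- cells, against 1.28 FPKM in MHCII- GFP+ and 0.443 FPKM in MHCII- GFP- cells. The MHCII+ gates were close to each other and far above the MHCII- gates, 10.5-fold within GFP+ cells and 32.1-fold within GFP- cells. These levels rest on an estimated 204 and 238 fragments in the MHCII+ gates, against 15.2 and 8.18 in the MHCII- gates. Cd79b, its partner chain, had 13.6 and 10.3 FPKM in the MHCII+ GFP+ and GFP- gates, against 3.77 and 2.42 FPKM in the MHCII- GFP+ and GFP- gates, ratios of 3.62 and 4.26. Its MHCII- level was the highest of the 4 B cell genes there. Ms4a1 had 4.39 and 4.77 FPKM in the MHCII+ gates, against 0.907 and 0.194 FPKM in the MHCII- gates, ratios of 4.84 within GFP+ and 24.6 within GFP- cells.

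Ly6d had 9.15 FPKM in MHCII+ GFP+ and 11.5 FPKM in MHCII+ GFP- cells, against 0.655 and 0.704 FPKM in the MHCII- GFP+ and GFP- gates. Its ratios of 14.0 and 16.4 between the MHCII gates were similar in both GFP classes. Because keratinocytes also make Ly6d, 10 keratinocyte genes were added as a list after the values were seen. Their summed FPKM was 5.50 in MHCII+ GFP+ and 27.8 in MHCII+ GFP- cells, against 3.94 and 7.58 in the MHCII- gates, and 1 of the 10, Lgals7, was higher in both MHCII+ gates (0.211 to 3.30 FPKM) than in either MHCII- gate (0.01 to 0.172 FPKM). Krt14 was listed at 0.01 FPKM, the lowest value in that table, in MHCII+ GFP+ cells and had 3.16 FPKM in MHCII+ GFP- cells. The part of keratinocytes in the level of Ly6d was not tested.

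Cd3e had 0.493 and 0.450 FPKM in the MHCII+ GFP+ and GFP- gates, against 0.900 and 0.925 FPKM in the MHCII- GFP+ and GFP- gates. Both MHCII+ values lay below both MHCII- values, at an estimated 7.49 and 7.57 fragments against 10.7 and 17.1. Cd3g had 0.629 and 1.44 FPKM in the MHCII+ gates, against 1.74 and 0.773 FPKM in the MHCII- gates, and the gates overlapped. Lag3 had 6.61 and 4.20 FPKM in the MHCII+ gates, against 2.49 and 3.31 FPKM in the MHCII- gates. It was 2.65-fold higher in MHCII+ cells within the GFP+ class and 1.27-fold within the GFP- class. Nkg7 had 1.81 and 0.510 FPKM in the MHCII+ gates, while the MHCII- GFP+ gate was listed at 0.01 FPKM and the MHCII- GFP- gate had 1.25 FPKM, so the gates overlapped.

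**Figure D1:**
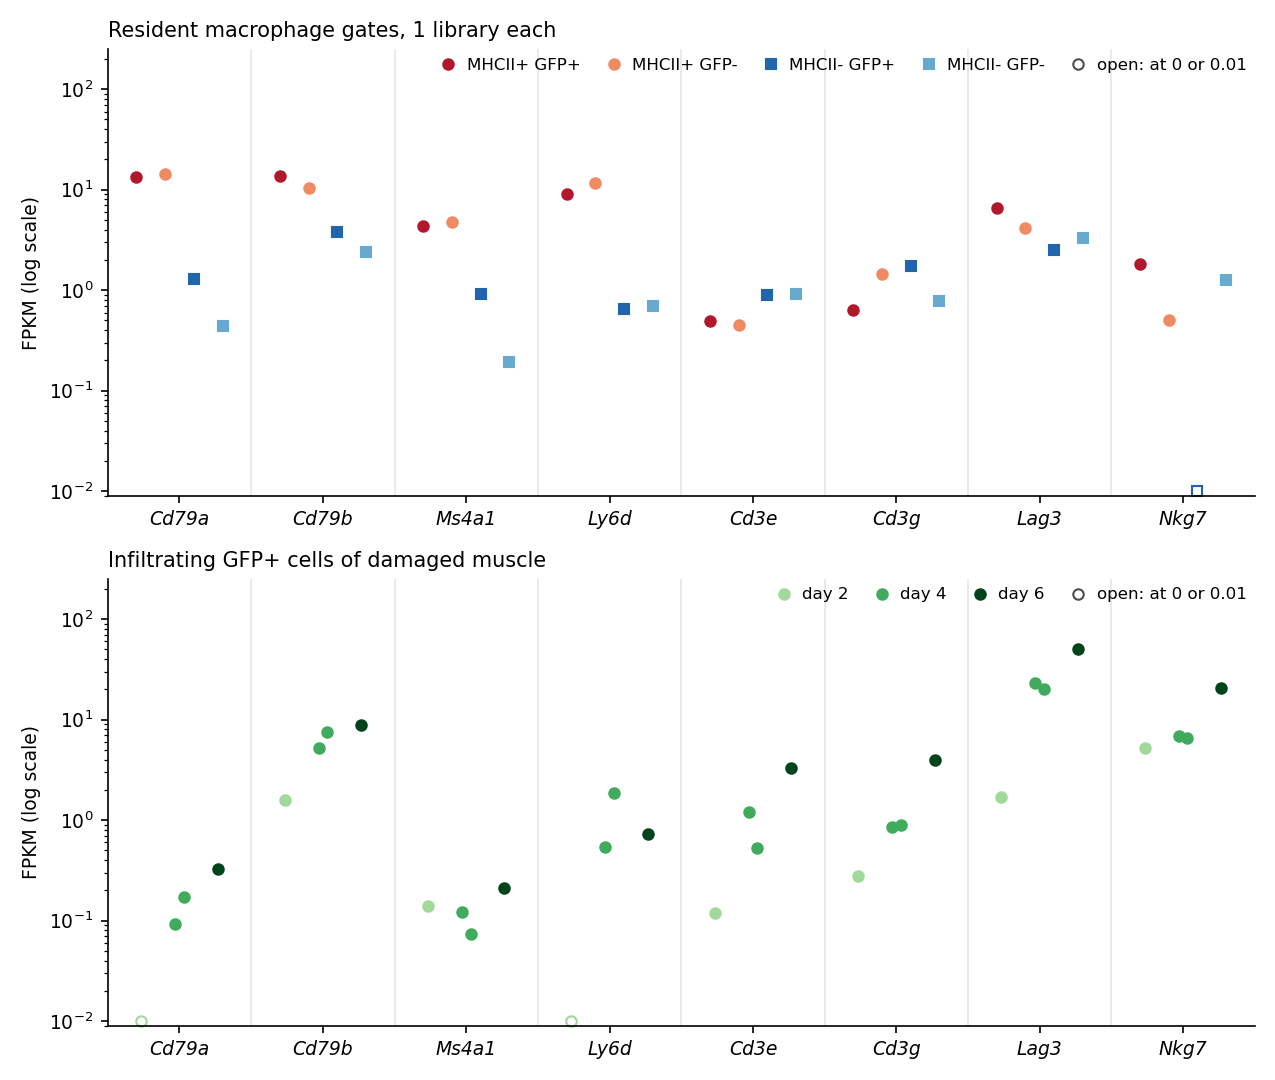
FPKM of the 8 lymphocyte genes in the 4 resident gates, MHCII+ left of MHCII-, and in the infiltrating libraries at day 2, 4 and 6, with 1 point per library. Cd79a, Cd79b, Ms4a1 and Ly6d sit higher in the MHCII+ gates (Cd79a at 13.5 and 14.2 FPKM against 1.28 and 0.443 FPKM), while Cd3e, Cd3g, Lag3 and Nkg7 are highest at day 6 (Lag3 at 50.3 FPKM).

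Cd79a, Cd79b, Ms4a1, Ly6d and Lag3 were past 2-fold higher in MHCII+ than in MHCII- cells within the GFP+ class, where 2.29% of 11873 genes were. Cd79a, Cd79b, Ms4a1 and Ly6d were also past it within the GFP- class, where 1.09% of genes were. With each library scaled to its FPKM sum the same members stayed past 2-fold in both classes, while the genes past it within GFP+ cells became 227 higher and 664 lower, against 272 higher and 168 lower as deposited, with the median of all genes at -0.20. Nkg7 was past 2-fold within GFP+ cells as well (a log2 change of 1.48), but its mean over the table was under 1 FPKM, the minimum for counting. Cd79a, Ms4a1 and Ly6d reached that minimum only through the MHCII+ gates. All 4 B cell genes and Lag3 had both MHCII+ values above both MHCII- values, against 15.1% of genes tested. Cd3e had both below, as did 15.6% of genes tested, but its mean was under 1 FPKM and it is not among them. Between the GFP gates, none of the 6 averaging 1 FPKM or more was past 2-fold in either MHCII class, where 1.47% (MHCII+) and 4.83% (MHCII-) of genes were, in either direction. Nkg7, under that minimum, was past 2-fold lower in GFP+ than in GFP- cells within the MHCII- class (a log2 change of -1.16). The split between GFP+ and GFP- within MHCII+ cells was 86 higher and 88 lower as deposited, and 82 higher and 245 lower after scaling to the FPKM sum. Within MHCII+ cells the GFP+ to GFP- ratio was 0.950 for Cd79a, 1.32 for Cd79b, 0.920 for Ms4a1 and 0.793 for Ly6d. Within MHCII- cells Cd79a and Ms4a1 were 2.89-fold and 4.68-fold higher in the GFP+ gate, at levels near or below 1 FPKM.

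A limma fit with MHCII and GFP as additive terms, added after the values were seen, sets 2 MHCII+ gates against 2 MHCII- gates. It has 1 residual degree of freedom, so that its spread comes almost wholly from all genes together and not from each gene, and an exact permutation test of this size cannot go below p = 0.333. It called 2.11% of genes for MHCII and 2.69% for GFP. For MHCII it called Cd79a (log2 change 3.03, SE 0.27), Ly6d (2.75, SE 0.28), Ms4a1 (1.89, SE 0.29) and Cd79b (1.67, SE 0.27). Cd79a, Ly6d and Ms4a1 entered the fit only through the MHCII+ gates. The GFP+ and GFP- gates are also different cells and not replicates, so these calls are descriptions. It did not call Lag3 (0.70, SE 0.27, limma adjusted p = 0.307) or Cd3g (-0.14, SE 0.30), and for GFP it called 0 of the 6 members tested, 0 of them at an unadjusted p under 0.05.

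Other B cell genes stood with the members. Of 21 B and plasma cell genes with a row, the 4 members among them, 17 were higher in both MHCII+ gates than in either MHCII- gate and 0 were lower. Of the 18 averaging 1 FPKM or more, 14 were higher in both MHCII+ gates, against 15.1% of all genes tested. Within each GFP class 13 of the 18 were past 2-fold higher and 0 lower. Their median log2 changes were 1.68 (GFP+) and 1.76 (GFP-), beside 0.015 over all genes within GFP+. Some of the 18, Pax5 and Pou2af1 among them, reached that mean only through the MHCII+ gates. The filter thus favoured genes higher there, so these counts and medians are descriptions. Pou2af1, a B cell co-activator of transcription, had 3.64 to 4.02 FPKM in MHCII+ cells, against 0.0952 to 0.122 FPKM in MHCII- cells, and Fcer2a, the low-affinity IgE receptor CD23, had 4.67 to 4.70 FPKM, against 0.0611 to 0.318 FPKM. Pax5, a factor that sets B cell identity, had 2.04 to 3.61 FPKM in MHCII+ cells, and was listed at 0.01 FPKM in both MHCII- gates. Some genes of the list did not divide in this way: Bank1 had 26.4 to 29.8 FPKM in MHCII+ and 22.5 to 40.9 FPKM in MHCII- cells, and Blnk had 49.5 to 63.5 FPKM, against 46.2 to 58.6 FPKM.

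A smaller share of T and NK genes did so. Of 25 T cell genes with a row, 6 were higher in both MHCII+ gates and 1, Cd3e, was lower. Of the 11 averaging 1 FPKM or more, 3 were higher in both MHCII+ gates and 0 lower, against 15.1% and 15.6% of all genes at that mean. Among these 11, 2 were past 2-fold higher within GFP+ and 1 within GFP- cells. Cd3d, the other CD3 chain, had 0.154 to 0.561 FPKM in MHCII+ and 0.252 to 0.590 FPKM in MHCII- cells. Cd2, an adhesion molecule of lymphocytes, had 22.1 to 28.0 FPKM, against 7.37 to 12.0 FPKM. Of 18 NK and cytotoxic genes, 8 were higher and 1 lower in both MHCII+ gates, and 1, Ccl5, reached a mean of 1 FPKM. The shares of all genes cover only genes at that mean, so they have no bearing on the rest of this list. The defining NK receptors Ncr1 (0.0690 to 0.126 FPKM in MHCII+, 0.01 to 0.113 FPKM in MHCII-) and Klrb1c (0.145 to 0.264 FPKM, against 0.149 to 0.232 FPKM) stayed under 0.3 FPKM in all gates.

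**Figure D2:**
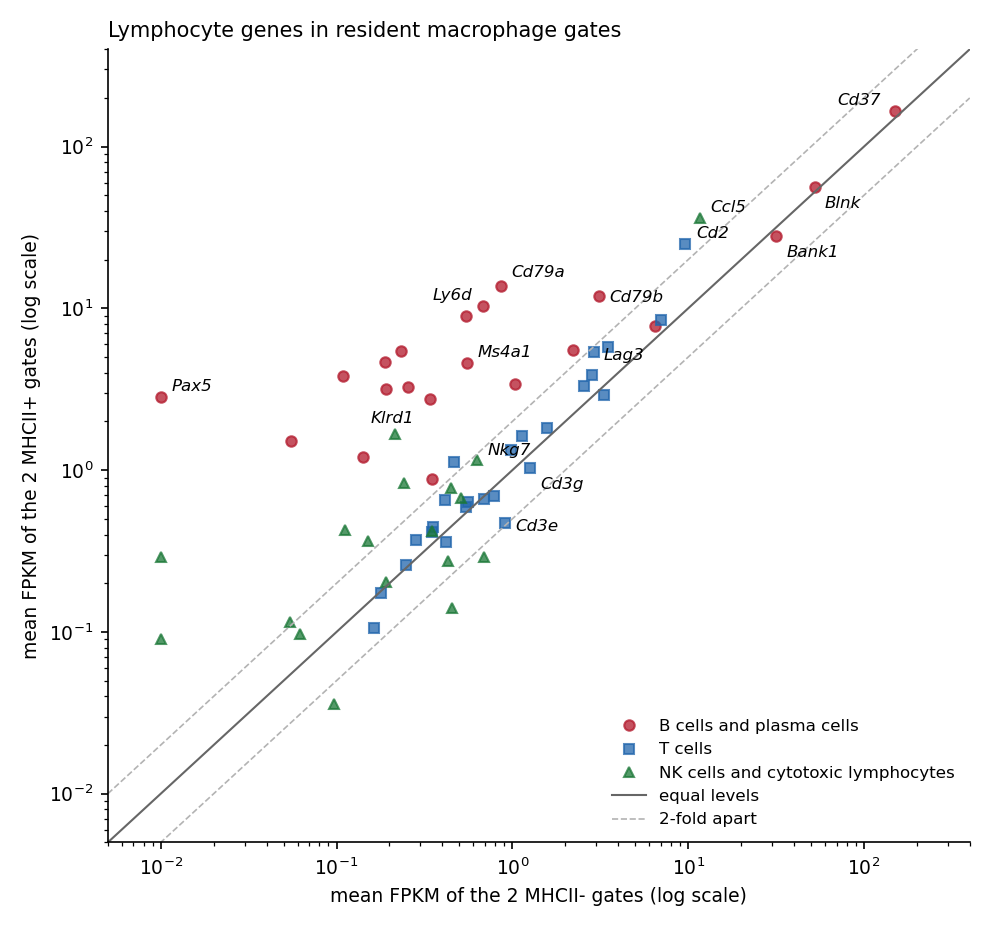
Mean FPKM of the MHCII+ gates (vertical) against the mean of the MHCII- gates (horizontal), log axes, for genes of the B, T and NK lists in resident macrophages, with the members named and a line at equal levels. Most B cell genes lie above the line (17 of 21 in both gates), while T and NK genes lie on both sides of it.

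Dendritic cell genes followed the same gate. Of 10 conventional dendritic cell genes, 9 were higher in both MHCII+ gates. These included 7 of the 8 averaging 1 FPKM or more, against 15.1% of all genes at that mean. Some of them, such as Flt3 (0.0419 to 0.295 FPKM in MHCII- cells) and Clec9a (0.576 to 0.579 FPKM), reached that mean only through the MHCII+ gates. The counts in this paragraph are thus descriptions. The summed FPKM of the 10 genes was 243 and 256 in the MHCII+ gates, against 60.3 and 135 in the MHCII- gates. Ccr7, which steers dendritic cells and lymphocytes to lymph nodes, had 17.2 to 29.0 FPKM in MHCII+ cells, against 1.04 to 1.34 FPKM in MHCII- cells. The sums of the B cell list were 355 and 337 FPKM in the MHCII+ gates, against 232 and 272 FPKM in the MHCII- gates, and those of the T cell list were 65.8 and 69.6, against 39.9 and 46.4. A few genes weigh most in these sums. Cd37 held 164 to 168 FPKM in MHCII+ and 113 to 188 FPKM in MHCII- cells, and like Blnk and Bank1 it overlapped between gates. Cd2 held 22.1 to 28.0 FPKM of the T cell sums in MHCII+ and 7.37 to 12.0 FPKM in MHCII- cells. The summed FPKM of 10 genes of plasmacytoid dendritic cells, which also use Ly6d and Lag3, was 255 to 272 in the MHCII+ gates and 237 to 246 in the MHCII- gates. Of these genes 6 were higher and 2 lower in both MHCII+ gates, of which 3 and 1 averaged 1 FPKM or more. The higher ones included Irf8 (60.9 to 78.1 FPKM in MHCII+, 46.3 to 54.8 FPKM in MHCII-), Bst2 (105 to 113 FPKM, against 72.2 to 95.6 FPKM), Klk1 (0.348 to 0.381 FPKM, against 0.01 to 0.104 FPKM) and Ccr9 (0.235 to 0.350 FPKM, against 0.105 to 0.192 FPKM), while Siglech had 29.8 to 40.8 FPKM, against 36.0 to 51.1 FPKM. Of 9 mast cell and eosinophil genes, 5 were higher and 2 lower in both MHCII+ gates, of which 4 and 2 averaged 1 FPKM or more. The sums of the 9 were 56.5 FPKM (GFP+) and 21.3 FPKM (GFP-) in MHCII+ cells, against 8.65 and 9.71 FPKM in MHCII- cells. The mast cell protease Tpsb2 had 5.07 to 13.0 FPKM in MHCII+ cells, against 0.248 to 1.12 FPKM in MHCII- cells, and Mcpt4, another, had 6.38 to 21.0 FPKM, against 1.94 to 2.77 FPKM. The part of dendritic cells and mast cells in the members' levels was not tested.

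In the infiltrating libraries Cd3e, Cd3g, Lag3, Nkg7 and the B cell receptor chain Cd79b stood highest at day 6, while Cd79a and Ms4a1 stayed under 0.4 FPKM on every day. Cd79b was above Cd3e and Cd3g in each of the 4 libraries. Only day 4 had replicate libraries, so the 2-fold rule on FPKM + 1 is given first. The titles of these libraries carry 200k at day 2, 50k and 60k at day 4 and 15k at day 6, amounts whose meaning the labels do not give and which cannot be told apart from the day.

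Cd3e had 0.120 FPKM at day 2, 1.21 and 0.527 FPKM in the day 4 replicates and 3.33 FPKM at day 6. Day 6 lay above both day 4 libraries, 3.84-fold over their mean, and day 4 above day 2. Cd3g, from the neighbouring gene, had 0.280 FPKM at day 2, 0.848 and 0.888 FPKM at day 4 and 3.95 FPKM at day 6, a ratio of 4.55 between day 6 and day 4. The estimated fragments of Cd3e and Cd3g were 3.03 and 4.96 at day 2 and 77.7 and 64.5 at day 6. Cd3d followed them, at 0.172 FPKM at day 2, 0.910 to 1.07 FPKM at day 4 and 2.81 FPKM at day 6.

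Lag3 had 1.71 FPKM at day 2, 23.2 and 20.3 FPKM at day 4 and 50.3 FPKM at day 6, the highest level of any member in any library. Its day 4 mean was 12.7-fold over day 2, and day 6 was 2.31-fold over day 4, with each day apart from the next. Nkg7 had 5.21 FPKM at day 2, 6.94 and 6.52 FPKM at day 4 and 20.6 FPKM at day 6. It thus differed little between day 2 and day 4 (1.29-fold) and was 3.06-fold higher at day 6.

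Cd79b had 1.58 FPKM at day 2, 5.22 and 7.52 FPKM at day 4 and 8.77 FPKM at day 6. It was 4.04-fold higher at day 4 than at day 2 and 1.38-fold higher at day 6 than at day 4, where the day 6 library exceeded the nearer day 4 library by less than those 2 libraries differed. Its partner Cd79a was listed at 0 at day 2 and had 0.0934 and 0.171 FPKM at day 4 and 0.328 FPKM at day 6, an estimated 7.62 fragments. The chains of the B cell receptor, at like levels in resident MHCII+ cells, were thus far apart in infiltrating cells. Ms4a1 had 0.139 FPKM at day 2, 0.120 and 0.0736 FPKM at day 4 and 0.212 FPKM at day 6. Ly6d was listed at 0 at day 2 and had 0.538 and 1.86 FPKM at day 4 and 0.720 FPKM at day 6, so that the day 4 replicates enclosed the day 6 value.

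Cd79b and Lag3 were past 2-fold higher at day 4 than at day 2, where 5.69% of 9805 genes were. Ly6d was also past it (a log2 change of 1.07), with a mean under 1 FPKM, and without day 4 replicate 2 its change was 0.62. Cd3e, Cd3g, Lag3 and Nkg7 were past 2-fold higher at day 6 than at day 4, where 1.13% of genes were. The log2 changes were 1.24, 1.41, 1.18 and 1.48 in that order, and without day 4 replicate 2 that of Cd3e was 0.97 and no longer past the rule. Cd3e and Cd3g reached the minimum mean of 1 FPKM only through the day 6 library. Day 6 lay above both day 4 libraries for Cd3e, Cd3g, Lag3 and Nkg7, and also for Cd79a, Cd79b and Ms4a1, as for 29.8% of genes. Both day 4 libraries lay above day 2 for each member except Ms4a1, as for 39.3% of genes. These shares cover genes averaging 1 FPKM or more, which leaves out Cd79a, Ms4a1 and Ly6d.

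A limma fit with day as a factor, also added after the values were seen, again has 1 residual degree of freedom and assumes that the lone day 2 and day 6 libraries vary as the day 4 ones do. It called 13.5% of genes between day 4 and day 2, among them Cd79b and Lag3. Between day 6 and day 4 it called 0.959% of genes, among them Cd3g (log2 change 1.41), Nkg7 (1.48), Cd3e (1.24) and Lag3 (1.18). Cd3e and Cd3g entered the fit only through the day 6 library, so the filter favoured genes high at day 6. Day 6 is also 1 library, so these calls are descriptions. The day 6 calls of Cd3e and Lag3 were lost under median scaling (limma adjusted p = 0.082 and 0.139), and those of Cd3e, Cd3g and Lag3 with a pseudocount of 0.1 (0.189, 0.080 and 0.128).

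The wider T and NK lists, which hold these 4 members, moved in the same direction, and the B cell list did not. Cd3e, Cd3g and Lag3 are in the T cell list and Nkg7 is in the NK list, so the counts below include them. Of 25 T cell genes with a row, 22 were above both day 4 libraries at day 6. These included 13 of the 15 averaging 1 FPKM or more, against 29.8% of all genes at that mean. Of the 15 averaging 1 FPKM or more, 10 were past 2-fold higher and 0 lower, with a median day 6 to day 4 ratio of 2.87. That minimum is a mean over all infiltrating libraries, and some genes, Cd3e and Cd3g among them, reached it only through day 6. The filter thus favoured genes high at day 6, here and in the other lists, so these counts and medians are descriptions. Ctla4, a second inhibitory receptor of T cells, had 0.207 FPKM at day 2, 0.274 to 0.801 FPKM at day 4 and 3.80 FPKM at day 6, and the T cell receptor kinase Lck had 0.747, 1.25 to 1.48 and 4.57 FPKM on those days. The exceptions were 3. Il7r, the interleukin 7 receptor, had 39.0 FPKM at day 2, 12.2 to 21.4 FPKM at day 4 and 12.8 FPKM at day 6, and Cd28, a co-stimulatory receptor, had 0.981, 2.45 to 3.39 and 3.20 FPKM on those days. Foxp3, the factor that marks regulatory T cells, had 0.0631, 0.102 to 0.106 and 0.0691 FPKM. All 18 NK and cytotoxic genes were above both day 4 libraries at day 6, and 12 of the 15 averaging 1 FPKM or more were past 2-fold higher, with a median ratio of 4.00. The NK receptor Ncr1 had 0.900 FPKM at day 2, 0.762 to 0.776 FPKM at day 4 and 3.32 FPKM at day 6, and the granule protease Gzma had 12.5, 8.82 to 10.3 and 30.8 FPKM. Of 19 B cell genes, 11 were above both day 4 libraries, among them 3 of the 5 averaging 1 FPKM or more. Of those 5, 0 were past 2-fold. Pax5 stayed at or under 0.0515 FPKM on every day, while Cd22, an inhibitory co-receptor, had 2.36 FPKM at day 2, 11.2 to 11.5 FPKM at day 4 and 11.5 FPKM at day 6.

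**Figure D3:**
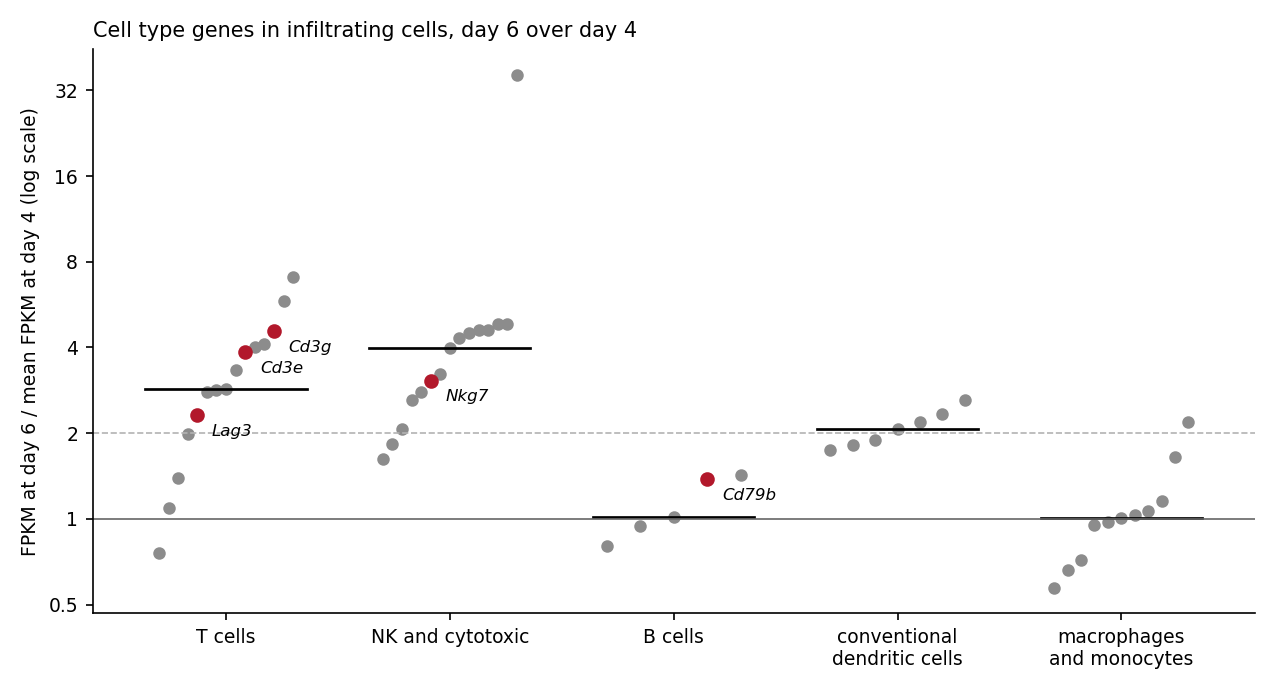
Ratio of day 6 to the mean of the day 4 libraries (log axis) for genes averaging 1 FPKM or more in 5 cell type lists, with a point per gene, bars at the list medians and the members in red. The NK and T cell lists centre at 4.00 and 2.87, dendritic cells at 2.07, and B cells and macrophages at 1.02 and 1.01. The 1 FPKM mean includes day 6, so genes high at day 6 passed more readily. The highest point, at 36.3, is Klra8, of a family of near-identical genes.

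Markers of other cells moved with day as well. All 10 conventional dendritic cell genes were above both day 4 libraries at day 6. These included all 7 averaging 1 FPKM or more, against 29.8% of all genes at that mean. Ccr7 had 9.82 FPKM at day 2, 30.2 to 36.2 FPKM at day 4 and 72.5 FPKM at day 6. Of 8 mast cell and eosinophil genes 6 were above both day 4 libraries at day 6. The 4 averaging 1 FPKM or more were all past 2-fold, with a median day 6 to day 4 ratio of 3.10. The summed FPKM of all 8 mast cell and eosinophil genes was 5.25 at day 2, 3.07 and 10.7 at day 4 and 18.6 at day 6. The 8 muscle fibre genes were also above both, and H2-Ab1 had 666 FPKM at day 2, 2206 and 2864 FPKM at day 4 and 4754 FPKM at day 6. The summed FPKM of the T cell list was 50.7 at day 2, 74.2 and 60.6 at day 4 and 140 at day 6, beside macrophage sums of 8224, 9437 and 10728, and 10513 on the same days. Il7r held 39.0 FPKM of the T cell sum at day 2, and the member Lag3 held 50.3 FPKM of it at day 6. Itgam, which encodes CD11B, had 160 FPKM at day 2, 96.0 and 45.1 FPKM at day 4 and 68.7 FPKM at day 6. The part of these cells in the members' levels was not tested.

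In mdx muscle no member reached 1 FPKM in any of the 6 libraries, and none differed between diets beyond the spread of the libraries. The highest value was 0.729 FPKM, for Ly6d in control replicate 1. Nkg7 had 0.414, 0.508 and 0.176 FPKM in PLX muscles, against 0.293, 0.0757 and 0.158 FPKM in control muscles. It averaged 0.366 ± 0.171 FPKM in PLX and 0.176 ± 0.110 FPKM in control muscles (SD, n = 3 each), and the groups overlapped (two-sided exact permutation p = 0.2). Cd79b had 0.256, 0.0450 and 0.272 FPKM in PLX muscles, against 0.423, 0.469 and 0.0486 FPKM in control muscles, with means of 0.191 ± 0.127 and 0.314 ± 0.231 FPKM (SD, n = 3 each; exact permutation p = 0.5). Its groups overlapped too, and the lowest library of each diet was near 0.05 FPKM.

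Cd79a had 0.0454, 0.0798 and 0.193 FPKM in PLX muscles, against 0.268, 0.125 and 0.01 FPKM in control muscles, the last being the lowest value the table lists. Cd3g had 0.186, 0.218 and 0.0658 FPKM in PLX muscles, against 0.0732, 0.170 and 0.0589 FPKM in control muscles. The diets overlapped for each of the 8 members. Among genes averaging 1 FPKM or more 23.0% had diets that did not, but no member is among those genes. Ms4a1, Cd3e and Lag3 were between 0.01 and 0.201 FPKM in all libraries and Ly6d between 0.01 and 0.729 FPKM. The exact permutation p over the 8 genes was 0.2 to 0.9, in a design that cannot go below 0.1. All members fell under the minimum mean of 1 FPKM for the fit across genes, which called 0.157% of 10197 genes. With a minimum of 0.1 FPKM, 5 members entered, and the limma adjusted p was 0.463 for Nkg7 (log2 change 0.21, SE 0.12) and 0.719 to 0.906 for Cd79b, Cd3g, Ly6d and Cd79a. Of the wider lists 3 B cell, 1 T cell and 1 NK gene were tested, and 0 were called; over all genes limma gave 1648 at an unadjusted p under 0.05. The labels do not say that every library came from a separate mouse, so p-values here measure the spread between these libraries.

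Each of the 8 members had a higher mean FPKM over the injured than over the mdx libraries, still at or under 2.66 FPKM. These levels were normalised separately, and the mice differed in sex and genotype. The ranges also overlapped for some members, such as Cd3e and Lag3, and the difference was not tested. Within injured muscle the diets overlapped for each of the 8 members. Among genes averaging 1 FPKM or more 30.4% had diets that did not, and of the members only Cd79b and Ly6d are among those genes. Cd79a had 0.367 FPKM in PLX muscle and 1.32 FPKM in control muscle at 12 h. At 18 h it had 0.384 and 1.77 FPKM in PLX muscles, against 0.334 and 1.43 FPKM in control muscles. Each diet thus held libraries near 0.35 FPKM and libraries over 1.3 FPKM, and the high pair at 18 h, replicate 2 of each diet, shares the first 3 characters of its titles. Cd79b had 0.944 FPKM in PLX and 1.96 FPKM in control muscle at 12 h, and 1.97 and 1.90 FPKM in PLX muscles, against 1.35 and 2.49 FPKM in control muscles, at 18 h. Ms4a1 had 0.0321 FPKM in PLX and 0.0736 FPKM in control muscle at 12 h, and 0.135 and 0.206 FPKM in PLX, against 0.0824 and 0.278 FPKM in control muscles, at 18 h. All 4 libraries at 18 h lay above both at 12 h, but the exact permutation p was 0.133, the smallest this design allows.

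Ly6d had 0.352 FPKM in PLX and 2.66 FPKM in control muscle at 12 h, and 1.09 and 1.33 FPKM in PLX, against 1.17 and 1.17 FPKM in control muscles, at 18 h. The diets thus stood far apart at 12 h and together at 18 h. The diet effect on the log2 scale was 1.46 higher at 18 h than at 12 h (SE 0.26), with a limma adjusted p of 0.101 over all genes, and each 12 h group is 1 library that was assumed to vary as those at 18 h. In this interaction 0.0605% of 11578 genes were called.

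The T and NK members were low and scattered. Cd3e had 0.0479 FPKM in PLX and 0.165 FPKM in control muscle at 12 h, and 0.301 and 0.01 FPKM in PLX, against 0.122 and 0.01 FPKM in control muscles, at 18 h. Cd3g had 0.285 and 0.163 FPKM at 12 h (PLX, control), and 0.519 and 0.229 FPKM in PLX, against 0.181 and 0.441 FPKM in control muscles, at 18 h. Lag3 had 0.462 and 0.758 FPKM at 12 h (PLX, control), and 0.554 and 0.265 FPKM in PLX, against 0.254 and 0.122 FPKM in control muscles, at 18 h. Nkg7 had 0.568 FPKM in PLX and 0.108 FPKM in control muscle at 12 h, and 1.18 and 1.68 FPKM in PLX, against 0.357 and 1.88 FPKM in control muscles, at 18 h.

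Cd79b and Ly6d averaged 1 FPKM or more and entered the fit of diet and time, in which 11.7% of 11578 genes were called for diet and 0.0777% for time. Neither was called. PLX against control gave a log2 change of -0.18 (SE 0.22, limma adjusted p = 0.614) for Cd79b and -0.46 (SE 0.30, limma adjusted p = 0.344) for Ly6d. Using the 18 h libraries alone, these changes were 0.036 and 0.024. For 18 h against 12 h the log2 change was 0.27 (SE 0.23, limma adjusted p = 0.528) for Cd79b and -0.03 (SE 0.32, limma adjusted p = 0.971) for Ly6d. With a minimum mean of 0.1 FPKM, Nkg7 entered, at 0.73 (SE 0.29, limma adjusted p = 0.263) for 18 h against 12 h.

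**Figure D4:**
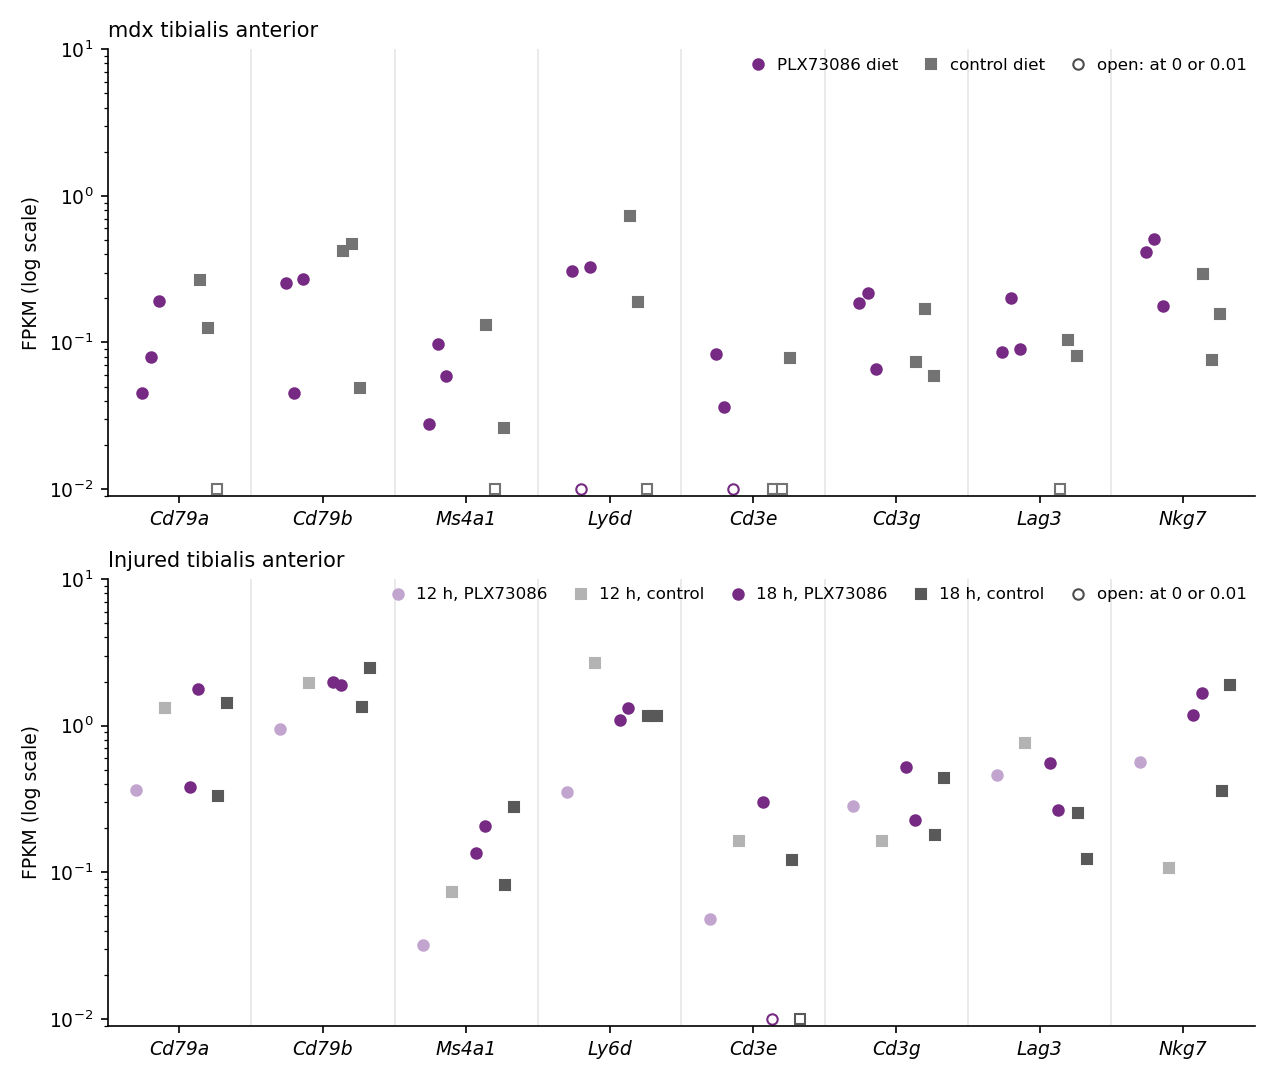
FPKM of the 8 lymphocyte genes in mdx muscle (PLX left of control, 3 libraries each) and in injured muscle at 12 h and 18 h (PLX left of control), log axis, with 1 point per library and open markers for values at the lowest listed level. PLX and control points overlap for the mdx libraries of each gene, and in injured muscle Ly6d at 12 h has the widest distance between diets (0.352 against 2.66 FPKM).

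Of the wider lists, 5 B cell, 3 T cell and 3 NK genes were tested for diet in injured muscle, and 0 were called by limma in either direction; over all genes limma gave 3563 at an unadjusted p under 0.05. Among 14 chemokines and homing receptors of lymphocytes, 10 were tested, 4 rose and 0 fell in PLX muscle, where 5.42% of all genes tested rose. Cxcl13, which attracts B cells, had 8.44 FPKM in PLX and 0.280 FPKM in control muscle at 12 h, and 3.51 and 5.12 FPKM in PLX, against 0.389 and 0.303 FPKM in control muscles, at 18 h. Its PLX libraries were all above its control libraries, with a log2 change of 2.27 (SE 0.23, limma adjusted p = 0.0131). The attractant Cxcl9 and the cytokine Il15 rose by 0.98 and 0.74 on the log2 scale (limma adjusted p = 0.0319 and 0.0432). These calls rest on few libraries: without PLX 18 h replicate 1, control 18 h replicate 1 or control 18 h replicate 2, 0 of the 4 passed, and Cxcl13 had an adjusted p of 0.00628 to 0.0699 over the fits that each left out 1 library. Without PLX 18 h replicate 2, Cxcl9 and Il15 did not pass, nor did they with the title prefix as a block (limma adjusted p = 0.0697 and 0.0668). Macrophage genes moved alongside, with sums of 1580 FPKM at 12 h and 2501 and 2479 FPKM at 18 h in PLX muscles, against 1178 at 12 h and 1276 and 1430 FPKM at 18 h in control muscles, and muscle fibre genes summed to 29638 to 41082 FPKM in PLX and 67264 to 89957 FPKM in control muscles. Their part in these changes was not tested.

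Across the 4 tables, which were normalised separately, each member had its highest level in a sorted population. Cd79a, Cd79b, Ms4a1 and Ly6d were highest in resident MHCII+ cells, with 14.2, 13.6, 4.77 and 11.5 FPKM at most, and Cd3e, Cd3g, Lag3 and Nkg7 at day 6 in infiltrating cells, with 3.33, 3.95, 50.3 and 20.6 FPKM. Over the 8 sorted libraries, which come from a pair of separately normalised tables, Pearson's r of log2(FPKM + 1) was 0.996 between Cd79a and Ms4a1, 0.941 between Cd79a and Ly6d and 0.667 between Cd79a and Cd79b. It was 0.850 between Cd3e and Cd3g and 0.786 between Lag3 and Nkg7. Among 9250 genes averaging 1 FPKM or more in both sorted tables, those most like Cd3e were Lck (r = 0.873), Cd3g (0.850) and Tcf7 (0.840). Those most like Nkg7 were Avpi1 (0.995), Fxr2 (0.961) and H2-Q9 (0.949), and those most like Cd79a were Depdc7 (0.943), Recql5 (0.936) and Prr33 (0.935), since most B cell genes were under that minimum in infiltrating cells. These correlations are descriptions over 8 libraries that share 2 tables.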

How the data were processed

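RNA-seq of sorted muscle macrophages and whole muscle was deposited by the authors as FPKM per gene, in 4 tables normalised separately. Per the labels' protocols, libraries were stranded and poly(A)-selected and were sequenced in pairs. The submitters' processing notes name bcl2fastq, Bowtie, STAR, Cufflinks and mm10, with no versions or roles. Cufflinks shares reads among overlapping transcripts, so low values are estimates. The lowest listed value was 0.01 FPKM in 3 tables and 0 in the infiltrating one. Entries without a unique gene name (23 infiltrating, 27 injured) and genes with a missing value (3 mdx, 10 injured) were left out.

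Depth (8150000 to 20100000 fragments) was estimated from steps between low FPKM values with GENCODE vM21 lengths, where values within 0.15 of a whole fragment counted as whole. FPKM keeps no counts, so no count model was used. Sorted libraries were compared by a 2-fold rule on FPKM + 1 among genes averaging 1 FPKM or more. Whole muscle was fitted per table with limma 3.58.1 (R 4.3.3; trend, two-sided, Benjamini-Hochberg over all genes tested, threshold 0.05) on log2(FPKM + 1), which understates changes of low genes. The fit was tested on simulated data. Single genes were compared by exact permutation tests (SciPy 1.17.1). Members and marker lists were chosen with earlier results of these data known. The rule named every member, and up to 8 genes per list by size or level; Cd3d, Itgam, H2-Ab1, Cx3cr1, Ncr1, Klrb1c, Ccr9, Klk1, Irf8, Bst2, Tpsb2, Mcpt4, Lgals7, Cd28, Foxp3 and the B cell genes that did not divide were named after their values were seen, as defining markers. The keratinocyte list and the limma fits of the sorted tables were added after the values were seen. Alternatives were another pseudocount, filter and scaling, a title-prefix block, a reporter covariate and each library left out. Some genes of the lists are counted but not reported here by name.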

Additional observations from a re-analysis of the deposited data

Results flagged for a closer look

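A pair of members moved in opposite directions between the MHCII gates of the GFP classes, with 1 library per gate. For Cd3g, MHCII+ minus MHCII- was -1.1068 FPKM in GFP+ cells and 0.6635 FPKM in GFP- cells. For Nkg7 it was 1.8037 FPKM in GFP+ cells and -0.744 FPKM in GFP- cells. Neither difference was tested. Lag3 in injured muscle was 0.2211 FPKM higher in PLX than in control muscle at 18 h, and PLX minus control was -0.2962 FPKM at 12 h, where each diet had 1 library. With a minimum mean of 0.1 FPKM the interaction was 0.51 on the log2 scale (SE 0.25, limma adjusted p = 0.333).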

How the results depend on the processing

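No member was called in whole muscle under any alternative run. With no minimum on low values, 0 of the 4 chemokine and homing genes called in injured muscle passed. A pseudocount of 0.1 moved the genes past 2-fold between MHCII gates from 440 to 843 (GFP+) and from 203 to 349 (GFP-), between GFP gates from 174 to 396 (MHCII+) and from 573 to 1047 (MHCII-), from 1047 to 1571 for day 4 over day 2 and from 135 to 253 for day 6 over day 4. Scaling each library to its FPKM sum gave 891 genes between MHCII gates within GFP+ cells and 327 between GFP gates within MHCII+ cells, and brought Cd3g (-1.14, MHCII+ over MHCII- in GFP+), Ms4a1 (1.07, GFP+ over GFP- in MHCII-) and Cd3e (1.18, day 4 over day 2) past 2-fold. Leaving out each day 4 library gave 783 to 1499 and 180 to 239 genes. The mdx calls were 16, with 8 at a minimum of 0.1 FPKM, 1 with no minimum, 8 with the reporter as covariate and 0 to 120 with a library left out (120 without control replicate 3, 0 without control replicate 1 or 2 or PLX replicate 2 or 3). The injured diet calls were 1349, with 5 with no minimum, 2326 in the 18 h libraries and 0 to 2246 with a library left out (0 without PLX 18 h replicate 1). Time calls were 9, with 2 with no minimum and 2 to 1901 with a library left out (1901 without control 12 h). The added limma fit of day 6 over day 4 made 94 calls, with 30 at a pseudocount of 0.1, 84 at a minimum of 0.1 FPKM (where Lag3 did not pass) and 32 under median scaling. Interaction calls were 7, with 0 at a pseudocount of 0.1, 502 with no minimum and 2 to 9 with a library left out.

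The diet change reversed to 0.036 for Cd79b and 0.024 for Ly6d in the 18 h libraries and without either 12 h library, with ranges of -0.40 to 0.036 and -0.65 to 0.024. The time change of Ly6d, near 0, turned to 0.20 at a pseudocount of 0.1, 0.021 under median scaling, 0.08 without control 18 h replicate 1 or 2 and 0.71 without control 12 h (range -0.76 to 0.71), and that of Cd79b turned to -0.047 without PLX 12 h (range -0.047 to 0.59). The cause was not tested. Title prefixes gave a replicate block. Same-prefix deviations correlated at 0.29, 0.36 and 0.06 in mdx muscle, where each library correlated best with its own prefix, and 0.28 in injured muscle at 18 h. With 2 libraries per diet at 18 h the deviations mirror each other, so every pair stood at 0.28 or -0.28. Centring on the diet means ties the mdx values to each other as well. The labels do not say what a prefix marks. The block gave 15 mdx, 462 injured diet and 3 time calls, changed no member's call, and left Cxcl13 at an adjusted p of 0.0434 and Cxcl9 and Il15 at 0.0697 and 0.0668. Depth limits levels under about 1 FPKM.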
